A study of Rattus norvegicus with 9 samples.

Results

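The loci described here are the short annotated RNAs of the rat brain, 173 of the 114601 loci in the deposited gene count table. Each has a transcript that matched the reference annotation exactly, spans less than 350 bp of the genome, is not mitochondrial and reached 10 or more expected counts in at least 3 of the 9 libraries. The RNA came from whole brains of male, alcohol-naive rats on a Wistar background, and the libraries were depleted of ribosomal RNA, so that RNAs without a poly(A) tail were kept. The 3 homozygous rats (Lrap-/-) carried, on each allele of Lrap, a long non-coding RNA gene, a loss of 618 bp made with CRISPR/Cas9 (line Crl:WI-Lrapem1Geh). The 3 heterozygous rats (Lrap-/+) carried it on 1 allele, and the 3 wild-type rats were Wistar rats bought from Charles River. The mutants come from 1 edited line, and no source used here gives the wild types as their littermates, so for wild-type comparisons line and genotype cannot be told apart. In whole tissue, fewer cells of a type and less RNA per cell cannot be told apart.

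Most of the best-known short RNAs of a cell work inside particles. 7SL RNA is the scaffold of the signal recognition particle, which directs new secreted and membrane proteins to the endoplasmic reticulum. The RNA of RNase MRP is the catalytic RNA of an enzyme that processes precursor ribosomal RNA, and the related RNase P trims precursor transfer RNA. Many are made by RNA polymerase III, while many small nucleolar RNAs, which guide the modification of ribosomal RNA, are cut out of the introns of host genes.

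The names give the kind of only a few members. Rn7sl1 is 7SL RNA, Rmrp is named for RNase MRP, and 5S_rRNA for 5S ribosomal RNA. Another 161 have clone, LOC or RGD names that by themselves say nothing of their kind, though RefSeq lists AABR07026317.1 as a synonym of the pseudogene Rps28-ps1. The remaining 9 carry protein names: 5 of ribosomal proteins or their pseudogenes (Rpl37, Rpl35a at 2 loci, Rpl36a-ps2, Rps21-ps1), 2 of histones (Hist1h4a, Hist1h4m), and Ndufv3-ps1 and Timm8a1. The set is thus short annotated loci, and not all of them are non-coding by name. No locus named as a microRNA was a member: 55 such loci met the span rule, 3 had any count, and the highest count was 3.

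The locus named Rmrp has conflicting names. Its position is chromosome 15, 27738972 to 27739269 (rn6, minus strand), and no other locus covers it. RefSeq (assembly GRCr8) lists Rmrp as a synonym of Rpph1, the name of the RNase P RNA, on chromosome 15 with the type RNase MRP RNA, and in both assemblies the nearest named genes are Ccnb1ip1 and Tep1. Which of these RNAs the locus makes was not settled by the files, and it is called Rmrp here as deposited.

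Members spanned 78 to 348 bp (median 164 bp) and each was assembled as a single transcript. In all, 1250 loci met the span and match rules, of which 731 had no count in any library and 1077 stayed below the count minimum. The third-largest count of a locus, which decides membership, was 10 in the member just inside and 9.46 in the locus just outside. Of the members, 137 had 10 or more counts in all 9 libraries and 1 had them in homozygous libraries only. That member passed through the genotype where it was high. Overall 172 members were tested, because AABR07004988.1 did not pass the filter on low counts.

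Many members are copies that short reads cannot tell apart. The 173 loci held 149 distinct count profiles, and 38 loci in 14 families had the same count as another member in every library. RSEM, the quantifier, divides reads that fit several loci between them. Rn7sl1, on chromosome 6 at 91456908 to 91457210 (plus strand, 303 bp), had the same counts as AABR07064724.4, a 303 bp locus at 91680226 to 91680528 on the minus strand. Other families were 4 loci of 191 bp on chromosomes 9 and 10, 4 of 164 bp on chromosomes 2 and 6, and 3 of 312 bp on chromosome 4 that include Hist1h4m. Such loci are not independent measurements.

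The libraries held 27489383 to 46975919 expected counts. As the check of the targeted gene, the Lrap isoform that holds a stretch of 618 bp skipped by the other assembled isoform was at 0.244, 0.387 and 0.400 CPM (counts relative to library sizes that TMM had scaled) in homozygous rats 1 to 3, at 1.00, 0.998 and 1.11 CPM in heterozygotes and at 2.57, 1.88 and 2.36 CPM in wild-type rats, in the order of the labels. Markers of neurons (Snap25, 314 to 552 CPM) and oligodendrocytes (Mbp, 1026 to 2333 CPM) were present in every library, and the liver gene Alb stood at 1.67 to 3.97 CPM. Markers of small regions varied between libraries: the cerebellar gene Gabra6 ran from 0.583 to 103 CPM and the pineal gene Tph1 from 0.153 to 92.4 CPM. The mitochondrial genome held 14.8 to 16.9% of counts in homozygous, 15.1 to 28.1% in heterozygous and 19.6 to 40.4% in wild-type libraries. Every homozygous library lay below every wild-type library. Wild-type rat 2 stood apart, with 40.4% of its counts on the mitochondrial genome against 14.8 to 28.1% in the others. In that library the hypothalamic genes Avp and Oxt stood at 0.0259 CPM, against 1.01 to 2.46 CPM elsewhere. By the composition of their added spike-in RNAs, homozygous rats 1 to 3 and wild-type rat 2 formed a pattern, here A, and the other 5 libraries formed pattern B. Fits with the spike-in pattern as a covariate, fits without wild-type rat 2 and shares outside the mitochondrial genome are given below. They do not show what part any of these had in the results on short loci. The part of the regional markers was not tested.

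The 173 short loci took a larger share of the counts in every mutant library than in any wild-type library. The share was 12.96, 13.5 and 11.4% in homozygous rats, 10.98, 10.01 and 9.97% in heterozygous rats and 6.79, 4.97 and 8.67% in wild-type rats. The groups did not overlap: homozygous rats averaged 12.6 ± 1.06%, heterozygous rats 10.3 ± 0.572% and wild-type rats 6.81 ± 1.85% (SD, n = 3 each). The exact 2-sided permutation p was 0.1 for each of the 3 comparisons, the smallest that 3 against 3 can give. As a share of counts outside the mitochondrial genome, the means were 15.0 ± 1.28% in homozygotes, 13.3 ± 1.39% in heterozygotes and 9.25 ± 1.34% in wild-type rats, and the homozygous and heterozygous ranges then overlapped (13.7 to 16.2% and 11.7 to 14.3%). Without wild-type rat 2, homozygous rats stood 4.88 percentage points above wild type and heterozygous rats 2.59 points above it, against 5.80 and 3.51 points with it.

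**Figure D1:**
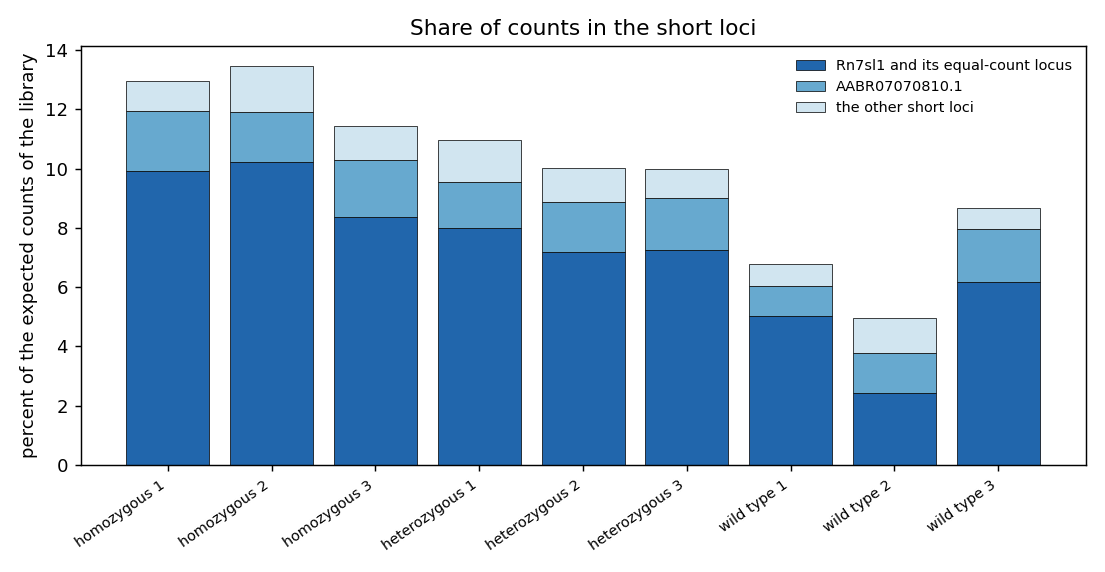
Percent of each library's expected counts in the short loci, stacked as Rn7sl1 with its equal-count locus, AABR07070810.1 and the other 170 loci; each bar is 1 rat. The 3 homozygous bars reach 11.4 to 13.5%, the 3 heterozygous bars 9.97 to 10.98% and the 3 wild-type bars 4.97 to 8.67%.

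Most of these counts came from 7SL. Rn7sl1 and its equal-count locus together held 9.92, 10.2 and 8.36% of all counts in homozygous rats, 8.01, 7.20 and 7.26% in heterozygous rats and 5.04, 2.45 and 6.17% in wild-type rats. AABR07070810.1, a 331 bp locus on chromosome 8 whose kind the name does not give, held 2.01, 1.69 and 1.94% in homozygotes, 1.55, 1.67 and 1.75% in heterozygotes and 1.00, 1.34 and 1.79% in wild-type rats. The other 170 loci together held 1.23 ± 0.273% in homozygotes, 1.18 ± 0.234% in heterozygotes and 0.882 ± 0.260% in wild-type rats, ranges that overlapped. Wild-type rat 2 differed from the other libraries within the set too: 7SL made up 49.2% of its short-locus counts, against 71.1 to 76.6% elsewhere.

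Rn7sl1 stood at 60076, 51821 and 49083 CPM in homozygous rats, at 34882, 30916 and 44624 CPM in heterozygotes and at 24228, 11359 and 26030 CPM in wild-type rats (CPM, not divided by length). No 2 genotypes overlapped, and wild-type rat 2 was the lowest of all. The means were 53660.0 ± 5723 CPM in homozygotes, 36807 ± 7054 CPM in heterozygotes and 20539 ± 8001 CPM in wild-type rats. The log2 fold change was 1.39 (SE 0.26) for homozygous against wild type, which did not pass at 0.05 (edgeR adjusted p = 0.38 over all 39057 tested loci). It was 0.84 (SE 0.26, edgeR adjusted p = 0.981) for heterozygous against wild type and 0.54 (SE 0.26, edgeR adjusted p = 1.00) for homozygous against heterozygous. Both comparisons with wild type use the same 3 control rats. Without wild-type rat 2 the first was 1.10 (SE 0.15, edgeR adjusted p = 0.129) and the second 0.55 (SE 0.15). Within spike-in pattern A the homozygous mean of 53660.0 CPM stood against 11359 CPM in 1 wild-type library, and within pattern B the heterozygous mean of 36807 ± 7054 CPM (n = 3) stood against 25129 ± 1274 CPM (n = 2) in wild type. The other fits of Rn7sl1 for homozygous against wild type gave 1.10 to 2.24 with adjusted p from 0.00507 to 0.829. It passed with DESeq2 (adjusted p = 0.00507) and with the spike-in pattern as a covariate (edgeR adjusted p = 0.00578). The covariate fit leans on wild-type rat 2, the library of lowest Rn7sl1.

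Rmrp was at 3108, 1235 and 1816 CPM in homozygous rats, at 915, 982 and 1409 CPM in heterozygotes and at 683, 412 and 772 CPM in wild-type rats. Every mutant library lay above every wild-type library, and homozygous and heterozygous libraries overlapped through homozygous rat 2. The means were 2053 ± 959 CPM in homozygotes, 1102 ± 268 CPM in heterozygotes and 622 ± 187 CPM in wild-type rats. The log2 fold changes were 1.72 (SE 0.33, edgeR adjusted p = 0.456) for homozygous and 0.82 (SE 0.33, edgeR adjusted p = 0.981) for heterozygous against wild type, and 0.90 (SE 0.33, edgeR adjusted p = 1.00) between the mutants. Without wild-type rat 2 the first was 1.5 (SE 0.38). The difference between the mutants was 0.46 (SE 0.28) without homozygous rat 1, the highest library, and up to 1.18 without other libraries. Other fits of the homozygous comparison gave adjusted p from 0.00117 to 0.992, and Rmrp passed with DESeq2 (adjusted p = 0.00117) and with the spike-in covariate (edgeR adjusted p = 0.0431). The covariate fit leans on wild-type rat 2, the library of lowest Rmrp, and called 2189 of all loci in this comparison.

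AABR07070810.1 (chromosome 8 at 85480292 to 85480622, minus strand) was at 24297, 17103 and 22766 CPM in homozygous rats, at 13499, 14300 and 21544 CPM in heterozygotes and at 9617, 12444 and 15113 CPM in wild-type rats. In CPM the homozygous libraries lay above wild type, and heterozygous libraries overlapped both. As a share of all counts, homozygous and wild-type libraries overlapped (1.69 to 2.01% against 1.00 to 1.79%). The TMM factors behind CPM were 0.826, 0.987 and 0.851 in homozygous rats, and a factor below 1 raises CPM. They were 1.15, 1.16 and 0.813 in heterozygous and 1.04, 1.08 and 1.18 in wild-type rats. The log2 fold change of AABR07070810.1 for homozygous against wild type was 0.79 (SE 0.22, edgeR adjusted p = 0.544).

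**Figure D2:**
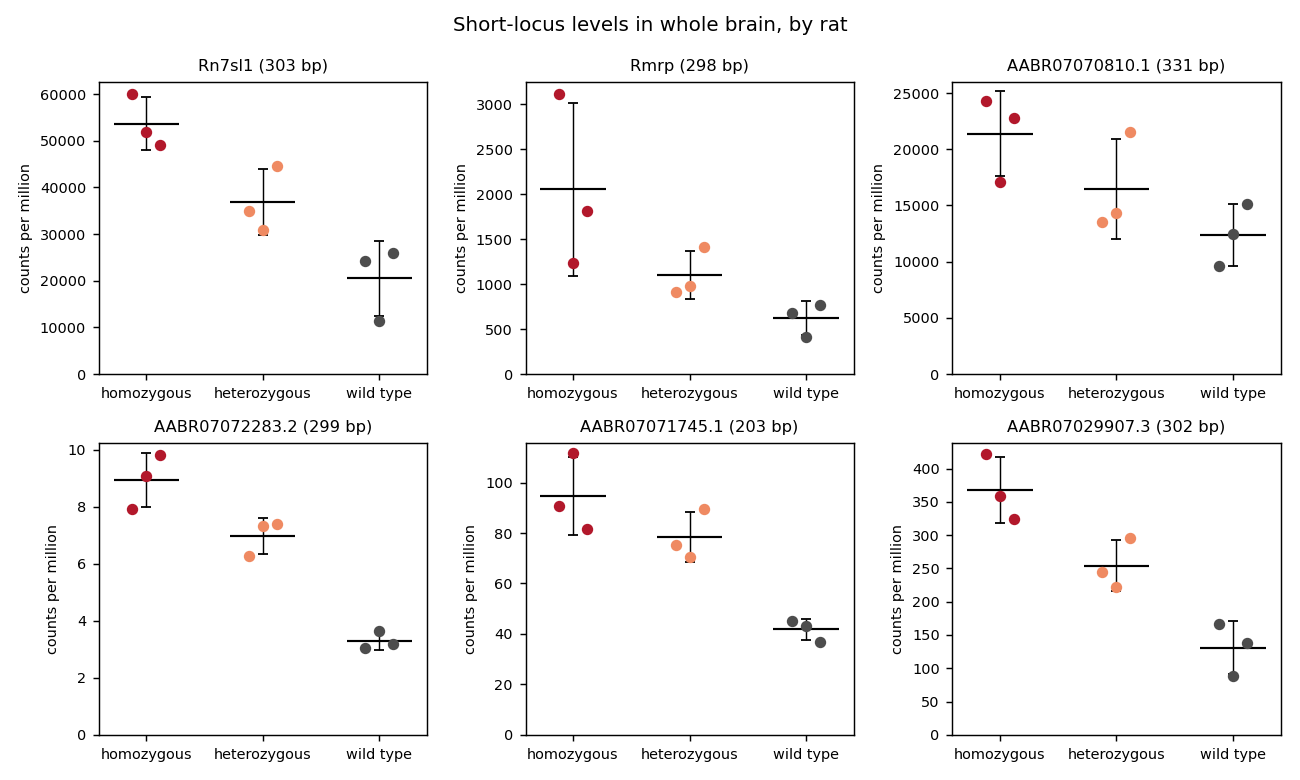
Levels of 6 short loci in CPM (linear axes from 0), each point 1 rat, with horizontal lines at the genotype mean and bars of 1 SD. In all 6 panels the 3 homozygous points lie above the 3 wild-type points; for Rn7sl1 the means are 53660.0 CPM in homozygotes, 36807 CPM in heterozygotes and 20539 CPM in wild-type rats.

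Across the members, levels were mostly above wild type in both mutant genotypes, and no member passed the adjusted threshold in any comparison. For homozygous against wild type, 0 of 172 tested members and 0 of all 39057 loci (0.0%) had an edgeR adjusted p under 0.05, while DESeq2 called 12 members. At an unadjusted p under 0.05, 62 members (36.0%) were higher in homozygous rats and 0 lower, where 4.88% of all tested loci were higher and 4.25% lower. The log2 fold change was above 0 for 150 of 172 members, against 44.3% of all loci. The median was 0.62 for members and -0.07 for all tested loci, with members ranging from -1.05 to 2.00. Counting each count profile once, 52 of 148 profiles were higher at an unadjusted p under 0.05, with the same median of 0.62. All 3 homozygous libraries lay above all 3 wild-type libraries for 56 members (32.6%, against 7.28% of all loci) and below them for 0 (against 6.09%). Without wild-type rat 2, an alternative chosen after the data were seen, the first of these counts was 119 (69.2%, against 10.1% of all loci). The homozygous libraries are then all of pattern A and the wild-type libraries all of pattern B. Genotype and spike-in pattern cannot be told apart in that comparison. Without wild-type rat 2 the count at an unadjusted p under 0.05 was 108 of 173 (against 3.01% of all loci) and the median 1.01. Without wild-type rat 3 it was 61 of 173, and the share of all loci was then 12.9%. With the spike-in pattern as a covariate 29 members were higher and 13 lower at that threshold, and the members' median was 0.25. Of all loci, 13.7% were then higher, and the share lower is not given here.

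For heterozygous against the same wild-type rats, edgeR called 0 members by adjusted p and 3 of all loci (0.00768%), and DESeq2 called 4 members. At an unadjusted p under 0.05, 47 members (27.3%) were higher and 0 lower, where 1.37% of all loci were higher and 2.35% lower. The log2 fold change was above 0 for 156 members (90.7%, against 45.1% of all loci), and the median was 0.55 for members and -0.04 for all loci. The 3 heterozygous libraries lay above the 3 wild-type libraries for 27 members (15.7%, against 2.69% of all loci) and below them for 1 (against 3.8%). The count of 47 moved with single libraries: it was 94 without wild-type rat 2 (against 1.91% of all loci), 30 without wild-type rat 1 (against 1.55%) and 23 without heterozygous rat 3 (against 0.736%). Without wild-type rat 3 it was 36, against 7.84% of all loci.

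Between homozygous and heterozygous rats fewer members were past the unadjusted threshold. By adjusted p, edgeR and DESeq2 each called 0, where edgeR called 1 of all loci (0.00256%). At an unadjusted p under 0.05, 4 members (2.33%) were higher in homozygous rats and 0 lower, where 0.512% of all loci were higher and 1.2% lower. These were Rmrp, AABR07005613.1, AABR07029907.3 and AABR07072086.1. The log2 fold change was above 0 for 105 members (61.0%, against 50.7% of all loci), with a median of 0.09, and 0.00 for all loci. Homozygous libraries lay above heterozygous ones for 13 members (against 4.71% of all loci) and below them for 4 (against 4.12%). With the spike-in pattern as a covariate, the members' median between the mutants was -0.61, with 14 higher and 48 lower at an unadjusted p under 0.05. Of all loci, 10% were higher in that fit, and the share lower is not given here. Homozygous libraries all have pattern A and heterozygous ones all pattern B, so that fit ties the mutants together only through the wild-type rats. Leaving out single libraries, the 4 higher members became 1 without homozygous rat 1 (against 0.461% of all loci) and 7 without heterozygous rat 1 (0.716%) or wild-type rat 3 (0.791%). They became 11 without heterozygous rat 3 (0.692%) and 16 without wild-type rat 2 (1.27%).

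**Figure D3:**
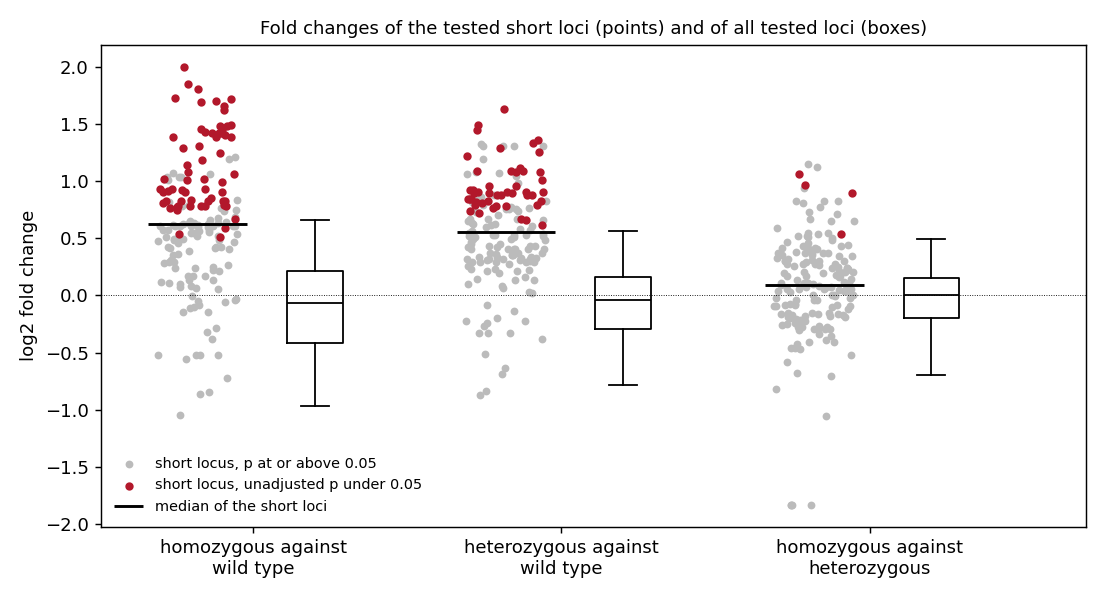
Log2 fold changes of the 172 tested short loci (points, red at an unadjusted p under 0.05, black line at their median) and of all 39057 tested loci (boxes from the 25th to the 75th percentile with a line at the median and whiskers to the 5th and 95th). The medians of the short loci are 0.62 for homozygous against wild type, 0.55 for heterozygous against wild type and 0.09 for homozygous against heterozygous.

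The split by spike-in pattern left small comparisons. In pattern A, all 3 homozygous libraries lay above wild-type rat 2 for 73 of 173 members (42.2%, against 32.7% of all tested loci). In pattern B, all 3 heterozygous libraries lay above wild-type rats 1 and 3 for 103 members (59.5%, against 6.68% of all tested loci).

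Weakly counted members did not make up these counts alone. Among the 98 members with a mean of 100 or more counts over all libraries, 40 were higher in homozygous rats at an unadjusted p under 0.05, where 8.97% of all loci of that depth were. Among the 43 with a mean of 1000 or more, 23 were, against 10% of all loci.

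The members of smallest p for homozygous against wild type were unnamed loci of differing abundance. AABR07072283.2 (chromosome 12 at 24796272 to 24796570, minus strand, 299 bp) was at 7.93, 9.09 and 9.81 CPM in homozygous rats, at 6.26, 7.33 and 7.38 CPM in heterozygotes and at 3.03, 3.63 and 3.20 CPM in wild-type rats. The 3 genotypes did not overlap. Its log2 fold change of 1.45 (SE 0.19) had an edgeR adjusted p of 0.0966, the smallest of all 39057 loci, and it ranked 2 by p. It also varied least within genotypes of all 149 profiles (SD 0.14 on the log2 scale, against a median of 0.50). Over the other fits its adjusted p ran from 1.32e-07 to 0.513. It passed without the low-count filter, with DESeq2 and with the spike-in covariate, a fit that leans on wild-type rat 2.

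AABR07029907.3 (chromosome 10 at 59151684 to 59151985, 302 bp) was at 422, 359 and 324 CPM in homozygous rats, at 245, 222 and 296 CPM in heterozygotes and at 167, 87.8 and 137 CPM in wild-type rats. No 2 genotypes overlapped (log2 fold change 1.49, SE 0.22, edgeR adjusted p = 0.131 for homozygous against wild type). A locus on the other strand covers it and no source used here says whether counting used the strand, so its counts are uncertain. AABR07072025.1 (chromosome 1, 148 bp) was at 14.9, 10.7 and 11.8 CPM in homozygotes, 9.37, 11.01 and 14.5 CPM in heterozygotes and 4.54, 5.27 and 3.80 CPM in wild-type rats. Mutants of either genotype lay above wild type and overlapped each other. Its log2 fold changes were 1.46 (SE 0.22, edgeR adjusted p = 0.16) for homozygous and 1.36 (SE 0.22, edgeR adjusted p = 0.357) for heterozygous against wild type. The second was the smallest p among members in its comparison.

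AC121204.3 (chromosome 5, 272 bp, also covered by a locus on the other strand) averaged 334 ± 62.0 CPM in homozygotes, 261 ± 57.9 CPM in heterozygotes and 141 ± 37.5 CPM in wild-type rats. AC129637.1 (chromosome 16, 195 bp, in an intron of a locus on the other strand as well) averaged 34.5 ± 2.51 CPM in homozygotes, 30.1 ± 6.76 CPM in heterozygotes and 17.4 ± 2.17 CPM in wild-type rats. AABR07049363.1 (chromosome 5, 283 bp) averaged 2.62 ± 0.407 CPM in homozygotes, 1.89 ± 0.470 CPM in heterozygotes and 0.992 ± 0.0977 CPM in wild-type rats. For these 3 loci every mutant library lay above every wild-type library, with an edgeR adjusted p of 0.38 for homozygous against wild type. In the heterozygous comparison the 8 of smallest p also held AC093937.2 (128 bp, log2 fold change 1.63, SE 0.36) and AABR07036375.1 (134 bp, 1.45, SE 0.40), both at an edgeR adjusted p of 0.981. AABR07005613.1 (293 bp) had the second smallest p between the mutants, at 1.34 ± 0.476 CPM in homozygotes and 0.630 ± 0.233 CPM in heterozygotes. Hist1h4m with its 2 equal-count loci and AABR07066826.2 were also among the smallest p there, each with an edgeR adjusted p of 1.00.

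Some members lie inside other genes. The introns of another locus on the same strand held 58 members, and 115 lay in no locus on their strand. For 56 intronic members the host was tested too, at 53 distinct hosts. The members' median log2 fold change for homozygous against wild type was 0.56 and that of their hosts 0.12, and 49 of 56 members had a higher log2 fold change than their host. For heterozygous against wild type these were 0.61, 0.06 and 55 of 56. For homozygous against heterozygous they were -0.02, 0.09 and 24 of 56. The 114 tested members outside other loci had a median of 0.71 in the homozygous comparison. At an unadjusted p under 0.05, 46 of these 114 were higher there and 15 of the 56 intronic members were past the threshold, where 4.88% of all loci were higher.

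The intronic member of smallest p for homozygous against wild type lies in Rpsa, a small-subunit ribosomal protein gene. AABR07071745.1 (chromosome 8 at 128807666 to 128807868, plus strand, 203 bp) was at 90.7, 112 and 81.5 CPM in homozygous rats, at 75.1, 70.6 and 89.4 CPM in heterozygotes and at 45.2, 43.2 and 37.0 CPM in wild-type rats. Rpsa itself was at 141, 142 and 128 CPM in homozygotes, 96.0, 106 and 132 CPM in heterozygotes and 95.3, 94.8 and 123 CPM in wild-type rats. The ratio of the intronic locus to Rpsa was 0.644, 0.788 and 0.634 in homozygous rats, 0.783, 0.666 and 0.676 in heterozygous rats and 0.475, 0.456 and 0.302 in wild-type rats. The ratio was higher in all 6 mutants than in any wild type. It differed by 0.77 (log2) for homozygous and 0.81 for heterozygous against wild type, each with an exact permutation p of 0.1, the smallest possible. The log2 fold change was 1.18 (SE 0.17, edgeR adjusted p = 0.131) for the intronic locus and 0.40 (SE 0.16) for Rpsa. AABR07042803.3, 135 bp in an intron of Cnot1, a scaffold of the complex that shortens poly(A) tails, averaged 2.97 ± 0.742 CPM in homozygotes, 2.27 ± 0.796 CPM in heterozygotes and 0.973 ± 0.425 CPM in wild-type rats (log2 fold change 1.62, SE 0.38, homozygous against wild type). Its host had a log2 fold change of 0.10 (SE 0.18). AC136563.3, 143 bp in an intron of the translation initiation helicase Eif4a1, was at 1044 to 1079 CPM in homozygotes, 711 to 1005 CPM in heterozygotes and 541 to 1079 CPM in wild-type rats, where wild-type rat 2 was as high as the homozygous rats.

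Of 8 spans shared by 5 or more members, 191 bp and 164 bp had the highest summed levels. The 9 members of 191 bp, on 4 chromosomes, summed to 2484, 5620 and 3669 CPM in homozygous rats, 2708, 3203 and 3141 CPM in heterozygotes and 2346, 3399 and 1328 CPM in wild-type rats, with overlap of all genotypes. The exact permutation p was 0.2 for homozygous and 0.4 for heterozygous against wild type. The 4 most abundant of them, AC095278.2, AC095278.4, AC095278.5 and AABR07068047.2, have equal counts and each stood at 522, 1027 and 727 CPM in homozygous rats, 567, 578 and 612 CPM in heterozygotes and 464, 593 and 268 CPM in wild-type rats. The 8 members of 164 bp summed to 2120, 3486 and 2498 CPM in homozygous rats, 3077, 1711 and 1897 CPM in heterozygotes and 1525, 1931 and 1117 CPM in wild-type rats. There homozygous and wild-type libraries did not overlap (exact permutation p = 0.1, the smallest possible). Their most abundant members were AABR07072260.2 on chromosome 11 and 4 equal-count loci, AABR07012589.1, AABR07012589.2, AABR07064315.1 and AABR07064316.1. Each stood at 423, 694 and 498 CPM in homozygous rats and 304, 386 and 223 CPM in wild-type rats. The 5 members of 153 bp varied most: AABR07063419.1 and its 3 equal-count loci were each at 54.1, 3.22 and 3.16 CPM in homozygous rats, 174, 31.7 and 7.04 CPM in heterozygotes and 30.5, 7.39 and 48.1 CPM in wild-type rats. Their within-genotype SD of 2.06 on the log2 scale was the largest of the 149 profiles, and their log2 fold changes of -1.83 between the mutants carried an SE of 1.55. Within genotypes the profiles varied with a median SD of 0.50, against 0.37 for all tested loci.

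Members with protein names stood on either side of their wild-type level. Rpl37, a large-subunit ribosomal protein name, was at 69.7 to 76.9 CPM in homozygotes, 61.9 to 75.95 CPM in heterozygotes and 56.5 to 84.4 CPM in wild-type rats. Its log2 fold change for homozygous against wild type was 0.12 (SE 0.17). Those of Rpl35a on chromosome 1, Rpl35a on chromosome 6, Rpl36a-ps2 and Ndufv3-ps1 were -0.55 (SE 0.35), -0.03 (SE 0.70), -0.32 (SE 0.21) and -0.72 (SE 1.03), each with overlapping genotypes. Hist1h4a, named for the core histone H4, was at 11.6, 4.20 and 5.69 CPM in homozygotes, 2.74, 3.28 and 3.59 CPM in heterozygotes and 2.24, 0.519 and 3.97 CPM in wild-type rats (1.66, SE 0.56, edgeR adjusted p = 0.544). Rps21-ps1 had 1.48 (SE 0.65), Timm8a1 0.65 (SE 0.43), Hist1h4m 0.50 (SE 0.39) and 5S_rRNA 0.74 (SE 0.64). RefSeq lists Rpl37 as a synonym of Rpl37l1 on chromosome 10, where the Rpl37 locus here lies. It places genes named Timm8a1, Hist1h4m, Rpl35a and Rpl37 itself on other chromosomes than these loci. Counts of such near-identical copies are uncertain. Rpl37 and Ndufv3-ps1 also lie in an intron of a locus on the other strand.

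Loci of different span stood apart within single libraries. The profiles were divided into 64 under 150 bp, 30 from 150 to 249 bp and 55 of 250 bp or more, and each locus was compared with its own mean over the 9 libraries on the log2 scale. In wild-type rat 2 the median deviation was 0.28 below 150 bp, 0.05 in the middle class and -0.41 in the longest. In wild-type rat 3 the order was the other way round, with -0.94, -0.85 and -0.20, and in wild-type rat 1 the medians were -0.74, -0.34 and -0.47. Among heterozygous libraries, rat 1 had 0.55, 0.16 and -0.17, rat 2 -0.19, 0.03 and 0.01, and rat 3 0.45, 0.09 and 0.36. Homozygous libraries had 0.08, -0.04 and 0.30 (rat 1), 0.30, 0.70 and 0.30 (rat 2) and 0.30, 0.28 and 0.38 (rat 3). In the longest class all 3 homozygous medians were above 0 and all 3 wild-type medians below 0. In the other classes wild-type rat 2 was above 0. The median difference between length and effective length of transcripts over 2000 bp, which follows the fragment length of a library, was 148.7 to 171.1 bp, with 153.2 to 161.3 bp in homozygous, 148.7 to 171.1 bp in heterozygous and 148.7 to 165.9 bp in wild-type libraries. Its part in these medians was not tested.

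**Figure D4:**
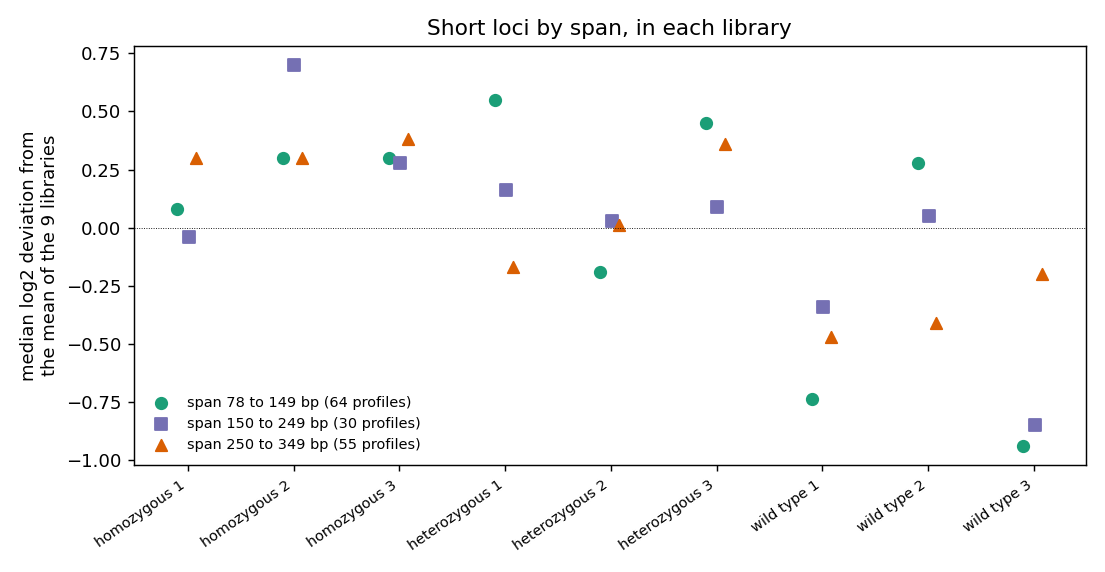
Median log2 deviation of short loci from their own mean over the 9 libraries, by span class, for each rat (1 locus per count profile). In wild-type rat 2 the class below 150 bp stands at 0.28 and the longest class at -0.41, while in wild-type rat 3 these are -0.94 and -0.20.

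For homozygous against wild type the median log2 fold change was 0.60 for the 73 tested members under 150 bp, 0.69 for the 41 of 150 to 249 bp and 0.76 for the 58 of 250 bp or more. In the same comparison 21, 15 and 26 of them were higher at an unadjusted p under 0.05, where 4.88% of all loci were. For heterozygous against wild type the medians were 0.67, 0.45 and 0.53, with 23, 6 and 18 members higher, where 1.37% of all loci were.

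On the authors' TPM scale, which divides counts by effective length and scales each library to 1 total, the differences of Rn7sl1, Rmrp and AABR07070810.1 from wild type were smaller. Rn7sl1 was at 151348, 138405 and 127870.1 TPM in homozygous rats, at 114996, 138871 and 114178 TPM in heterozygous rats and at 109994, 46412 and 132658 TPM in wild-type rats. Homozygous rats averaged 139208 ± 11760 TPM, heterozygous rats 122682 ± 14026 TPM and wild-type rats 96355 ± 44711 TPM. All 3 genotypes overlapped, and the log2 ratio of means was 0.53 for homozygous against wild type (exact permutation p = 0.2), against 1.39 in CPM. Rmrp was at 8097, 3409 and 4894 TPM in homozygotes, 3123, 4553 and 3724 TPM in heterozygotes and 3211, 1740 and 4073 TPM in wild-type rats, again overlapping, with a log2 ratio of 0.86 for homozygous against wild type (exact permutation p = 0.2), against 1.72 in CPM. For AABR07070810.1 the ratio was -0.04 in TPM and 0.79 in CPM. Per length, 7SL therefore stood far above Rmrp in every library on the TPM scale.

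Short loci fill much of the TPM total, and for the shortest of them the value rests on an effective length of a few bases. Members held 57.3 to 66.3% of all TPM in homozygotes, 49.9 to 73.3% in heterozygotes and 45.3 to 64.2% in wild-type libraries. Those under 150 bp held 14.7 to 23.0, 16.0 to 34.1 and 9.82 to 41.1% of TPM in the same order of genotypes, but 0.134 to 0.380% of counts over all libraries. AABR07060522.2 (102 bp, covered by an exon on the other strand) was given an effective length of 1.15 to 2.38 bp in 8 libraries and 0.00 in wild-type rat 1. It was at 236, 326 and 318 CPM in homozygous rats, at 627, 293 and 345 CPM in heterozygotes and at 132, 665 and 148 CPM in wild-type rats. In TPM it was at 65048, 108298 and 85953 in homozygous rats, at 191547, 116678 and 70530.3 in heterozygous rats, and in wild-type rats it was listed at 0, 177600.3 and 91831. AABR07005708.1 (93 bp) was listed at 0 TPM in 8 libraries and at 65778 TPM in wild-type rat 2. In each library 2 to 4 members with 10 or more counts were listed at 0 TPM. With TPM rescaled over loci of 200 bp or longer, an alternative chosen after the data were seen, the log2 ratio of Rn7sl1 was 0.49 for homozygous and 0.47 for heterozygous against wild type.

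**Figure D5:**
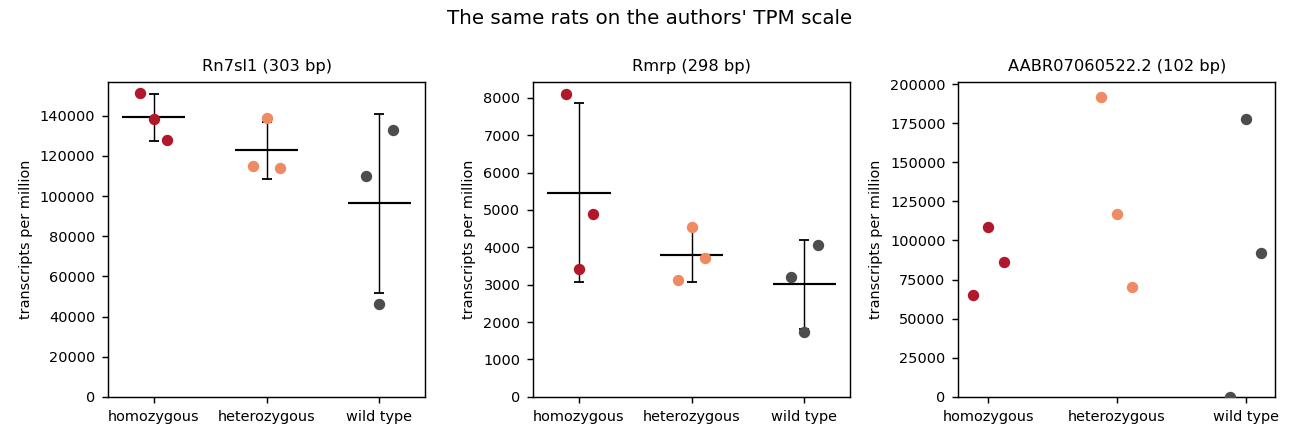
The authors' TPM of Rn7sl1, Rmrp and the 102 bp locus AABR07060522.2, each point 1 rat, with lines at the mean and bars of 1 SD for the first 2 loci only. For Rn7sl1 homozygous rats span 127870.1 to 151348 TPM and wild-type rats 46412 to 132658 TPM, and AABR07060522.2 is listed at 0 in wild-type rat 1.

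The genes of proteins that act with such RNAs, and of hosts of small nucleolar RNAs, were few past the unadjusted threshold. Of 145 genes in 9 lists, 119 were tested, and for homozygous against wild type 7 were higher and 1 lower at an unadjusted p under 0.05, with 0 passing edgeR's adjusted threshold; over all loci these shares were 4.88 and 4.25%. The list medians lay between -0.03 and 0.24, beside 0.62 for the short loci and -0.07 for all loci. Among all loci with a mean of 100 or more counts the median was 0.08, and with 1000 or more 0.11. For heterozygous against wild type 1 was higher and 1 lower, where 1.37% of all loci were higher and 2.35% lower. The list medians there were -0.03 to 0.20. None was past an unadjusted p of 0.05 between homozygous and heterozygous rats, where 0.512% of all loci were higher and 1.2% lower.

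The 7 tested proteins of the signal recognition particle and its receptor had log2 fold changes between 0.00 and 0.19 for homozygous against wild type, and 0 had an unadjusted p under 0.05. Srp14, which binds the Alu end of 7SL, was at 24.2 ± 2.70 CPM in homozygotes and 21.2 ± 4.01 CPM in wild-type rats (0.19, SE 0.18). Srp19, which binds the other end, had 0.14 (SE 0.19), and Srp72, which with Srp68 forms a dimer of the particle, 0.10 (SE 0.17). Among 11 tested proteins of RNase MRP and RNase P, 1 had an unadjusted p under 0.05. It was Rpp25, a protein that binds the RNA of both enzymes, at 4.44 ± 0.360 CPM in homozygotes, 3.29 CPM in heterozygotes and 1.99 ± 0.659 CPM in wild-type rats (log2 fold change 1.16, SE 0.28, edgeR adjusted p = 0.544). Its relative Rpp25l had 0.58 (SE 0.36) and Pop7, its partner in the enzymes, 0.34 (SE 0.21). Of the 11 tested genes of this list, 4 had a log2 fold change above 0 and 7 below it, with a median of -0.03.

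RNA polymerase III, which transcribes 7SL and the RNAs of RNase MRP and RNase P, was represented by 33 tested subunits and factors with a median of 0.14. Of these, 2 were higher and 1 lower at an unadjusted p under 0.05 for homozygous against wild type. Snapc2 and Snapc3 belong to the complex that binds small nuclear RNA promoters and had 0.50 (SE 0.19) and -0.34 (SE 0.15). Maf1, a repressor of the polymerase, was at 39.5 ± 3.14 CPM in homozygotes and 30.1 ± 3.80 CPM in wild-type rats (0.39, SE 0.16, edgeR adjusted p = 0.544). The 6 tested members of the 7SK particle, which holds the elongation factor P-TEFb inactive, had a median of 0.18 and none at an unadjusted p under 0.05. The smallest p were those of the capping enzyme Mepce (0.39, SE 0.20) and of the inhibitors Hexim2 (0.44, SE 0.34) and Hexim1 (0.24, SE 0.23).

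Among 25 tested spliceosomal proteins 1 was higher at an unadjusted p under 0.05, the Sm protein Snrpb (0.50, SE 0.21), while the Sm protein Snrpf had -0.48 (SE 0.23) and Snrpa, of the U1 particle, 0.52 (SE 0.26). Among 13 tested proteins of small nucleolar particles it was Dkc1, the pseudouridine synthase (1.25, SE 0.47, edgeR adjusted p = 0.544). Nhp2, of the same particle, had 0.35 (SE 0.17), and the assembly factor Znhit6 -0.42 (SE 0.24). Of 10 tested hosts of small nucleolar RNAs, the elongation factor gene Eef2 (0.66, SE 0.20) and Rpsa had a higher level at an unadjusted p under 0.05. The chaperone gene Hspa8 had 0.47 (SE 0.30). For microRNA processing, Tarbp2 and Prkra, partners of Dicer, had 0.45 (SE 0.25) and 0.34 (SE 0.21), and the exporter Xpo5 0.18 (SE 0.17). For the vault and Ro particles, Mvp, the major vault protein, had 0.39 (SE 0.25), Tep1 0.34 (SE 0.24) and Trove2, the Ro protein, 0.13 (SE 0.22). The 10 tested genes of the microRNA list had a median of 0.06 and the 4 of the vault and Ro list 0.24, with 0 at an unadjusted p under 0.05 in either.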

How the data were processed

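The values are expected counts that the authors estimated with RSEM for loci of a StringTie assembly, with TPM and effective lengths deposited for each library. The build rn6 and the tools HISAT2 and cutadapt are named in the submitters' processing notes; no source used here gives versions or strand settings. Loci on spike-in sequences were left out. The counts were rounded, loci were filtered with filterByExpr, and all 9 libraries were scaled with TMM and fitted together with edgeR 4.0.16 (quasi-likelihood, robust) in R 4.3.3. Each adjusted p is Benjamini-Hochberg over all 39057 tested loci, with a threshold of 0.05. Shares, ratios and TPM were compared with exact 2-sided permutation tests in scipy 1.17.1. Alternatives used DESeq2 1.42.0 and limma 3.58.1. The fit was tested on simulated counts.

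Depth ran from 27489383 to 46975919 expected counts per library. With 3 libraries per genotype, p-values set the difference between genotypes against the spread between rats.

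The rule for members, the lists of partner genes and the genes named were chosen with earlier results of these data known, and Rn7sl1 and Rmrp were already shown in them, so they are not independent support. Named were Rn7sl1, Rmrp, every member whose name gives its kind, members of highest mean CPM, the 8 members of smallest p in each comparison and the 3 tested genes of smallest p in each list; AABR07042803.3, AABR07060522.2 and AABR07005708.1 were named after their values were seen, and AABR07004988.1 as the untested member. Libraries of a genotype differed by more than sampling noise (chi-square per locus of 41.1 or more). Names of 11 members were matched to RefSeq, by symbol or, for Rpl36a-ps2, Rmrp and AABR07026317.1, by synonym only. No sequence of a member was at hand, and none is printed.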

Additional observations from a re-analysis of the deposited data

How the results depend on the processing

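The direction of Rn7sl1, Rmrp and the share of counts held under every alternative run, in all 3 comparisons. Counts of calls depended on the tool and the filter. For homozygous against wild type, members called were 2 with no filter on low counts, 12 with DESeq2 and 19 with the spike-in pattern as a covariate, and all loci called were 6, 33 and 2189. With that covariate, at unadjusted p under 0.05, 29 members were above wild type and 13 below it, and the members' median was 0.25. Of all loci, 13.7% were above, and the share below is not given here. As homozygous libraries all have pattern A, the homozygous against wild type comparison with that covariate leans on wild-type rat 2. DESeq2 gave log2 fold changes of 1.41 for Rn7sl1 and 1.75 for Rmrp, and the covariate 2.24 and 2.32, past the threshold in each case. For heterozygous against wild type, DESeq2 called 4 members and 18 loci. All loci called were 5 with no filter, 7 with only the 2 genotypes and 1 with the covariate, which gave 94 members higher at an unadjusted p under 0.05 (1.81% of all loci). For homozygous against heterozygous, all loci called were 2 with DESeq2 size factors, with library sizes without mitochondrial and short loci, with no filter, with limma-voom and with the 2 genotypes alone, 6 with DESeq2 and 5 with the covariate. Members higher at an unadjusted p under 0.05 were 8 with limma-voom (0.458% of all loci), 14 with the 2 genotypes alone (1.31%) and 14 with the covariate (10%). The cause of these shifts was not tested.

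Leaving out each library in turn gave 0 to 5, 1 to 28 and 1 to 18 loci called in homozygous against wild type, heterozygous against wild type and homozygous against heterozygous, with 0 members in each. Members higher at an unadjusted p under 0.05 numbered 47 to 108, 23 to 94 and 1 to 16, while the share of all loci ran from 2.5 to 12.9%, 0.736 to 7.84% and 0.461 to 1.27%. By span, 104 members lay under 200 bp.

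Rats share replicate numbers, but no label says that these pair them. Same-numbered rats had correlations of deviations of -0.18 to 0.40, with 5 of 9 above 0.1. Rats of other numbers had -0.51 to 0.39, and 4 of 9 libraries correlated best with their own number. These values do not settle whether the rats were paired. With the replicate number as a block, the homozygous against wild type fit called 1 locus and the fit between the mutants 2 loci, with 0 members, and 9 members were higher between the mutants at an unadjusted p under 0.05 (0.702% of all loci).

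Exact tests over 3 rats against 3 cannot go below 0.1, and members of a few counts per library, with 30 under a mean of 20, were measured least precisely.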
